A study of Mus musculus with 3 samples.

Results

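The 6 actin genes of the mouse were followed through a chromatin immunoprecipitation and sequencing study of SRF, the serum response factor, in whole cornea. The genes were taken by name. Actb (beta-actin) and Actg1 (gamma-actin) are the cytoplasmic actins, and Acta1 (skeletal alpha-actin), Acta2 (smooth muscle alpha-actin), Actc1 (cardiac alpha-actin) and Actg2 (smooth muscle gamma-actin) are the muscle actins. Their data are the 12 of 31850 merged SRF regions that the authors assigned to any of them. Of these regions 5 belong to the 2 cytoplasmic genes and 7 to the 4 muscle genes, and all 7 lie at Acta2 and Actg2.

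There were 3 libraries from cornea of mice of mixed background aged about 8 weeks and given no treatment. By their titles they were a mutant, a wildtype and an input library. The mutants were Dstn-corn1 mice, and the mutant and wildtype libraries were SRF libraries. The input was made without antibody, and its values were not used here. Corn1 is a mutation of Dstn that leaves mice without functional destrin, a protein that takes actin filaments apart. The growth protocol names mutant mice for every library, against the title of the wildtype one, and neither the number of mice behind each library nor the genotype of the input is stated in these sources. With 1 library per genotype, differences between them have no replicate check and were not tested. The values used are peak heights, which give the signal at a region's highest point and whose depth and scaling are unknown. As a check of the labels, the region over the start of Dstn was listed at 0 in the mutant library and at 35 in wildtype.

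Actin is at once a product and a regulator of SRF. Unpolymerized actin binds the MRTF coactivators and keeps them from SRF, and when actin is taken up into filaments the MRTFs are free to act with SRF on genes of the actin cytoskeleton, the actin genes among them. SRF recognizes the CArG box, 2 C bases, a core of 6 A or T bases and 2 G bases, and such boxes in actin promoters are textbook SRF sites. In the cornea the cytoplasmic actins build the cytoskeleton of epithelial and stromal cells, whereas Acta2 is best known as a marker of myofibroblasts and of smooth muscle. These sentences are background.

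The promoters are shown because the boxes can be set beside the regions. RefSeq promoter windows (GRCm38.p6, the mm10 assembly, 250 bases before the start to 50 after it) matched 4 of the 6 genes by symbol, all on the minus strand, and are printed 5′ to 3′ in the direction of transcription. Capitals mark every 10-base CArG box that is exact or has 1 mismatch within its core. The windows are chr11:120348446-120348745 for Actg1, chr8:123894726-123895025 for Acta1, chr19:34255324-34255623 for Acta2 and chr2:114052826-114053125 for Actc1.
Actg1: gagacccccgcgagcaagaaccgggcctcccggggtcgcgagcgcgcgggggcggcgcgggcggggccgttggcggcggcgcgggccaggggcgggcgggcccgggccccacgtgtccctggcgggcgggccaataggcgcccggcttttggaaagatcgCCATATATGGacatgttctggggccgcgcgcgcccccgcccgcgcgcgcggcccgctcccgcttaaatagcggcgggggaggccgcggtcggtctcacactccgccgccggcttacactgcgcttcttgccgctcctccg
Acta1: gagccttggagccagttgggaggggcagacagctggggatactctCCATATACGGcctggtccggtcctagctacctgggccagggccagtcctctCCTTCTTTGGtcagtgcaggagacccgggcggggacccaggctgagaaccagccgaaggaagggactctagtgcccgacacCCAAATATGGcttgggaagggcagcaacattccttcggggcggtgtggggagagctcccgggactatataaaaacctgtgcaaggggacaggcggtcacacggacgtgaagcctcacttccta
Acta2: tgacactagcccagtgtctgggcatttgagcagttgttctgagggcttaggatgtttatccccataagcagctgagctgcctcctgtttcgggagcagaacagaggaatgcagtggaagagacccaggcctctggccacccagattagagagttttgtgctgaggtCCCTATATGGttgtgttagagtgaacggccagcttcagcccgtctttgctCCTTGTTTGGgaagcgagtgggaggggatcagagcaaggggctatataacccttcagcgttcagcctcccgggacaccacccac
Actc1: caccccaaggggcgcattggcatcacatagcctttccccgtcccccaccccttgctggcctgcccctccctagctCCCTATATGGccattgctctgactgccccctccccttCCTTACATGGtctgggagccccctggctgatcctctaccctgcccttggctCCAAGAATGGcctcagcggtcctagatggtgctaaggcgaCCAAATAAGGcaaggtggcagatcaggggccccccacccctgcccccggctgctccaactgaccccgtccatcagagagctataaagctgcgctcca

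An exact box stood in 3 of the 4 windows, whereas 1.63% of all 32851 promoter windows held one. Actg1 had CCATATATGG, whose 5′ end lies 90 bases before the RefSeq start. Acta1 had CCAAATATGG, 73 bases before the start, and Actc1 had CCAAATAAGG, 47 bases before it. Acta2 had no exact box but 2 with 1 mismatch in the core, CCCTATATGG and CCTTGTTTGG, at 84 and 34 bases before the start. The sequence CCCTATATGG also stood in the Actc1 window, 175 bases before its start. With that mismatch allowed, 9.98% of all windows held a box, so such matches are common. The windows differ in base composition: that of Actg1 was 77.3% G or C with 50 CpG dinucleotides, and those of the 3 muscle genes were 54.7% to 62.7% G or C with 6 to 12.

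Regions were called over 1 of these 4 windows. The Actg1 box, at chr11:120348576-120348585, lay inside a region that both libraries called, and none of the 9 exact or 1-mismatch boxes of the muscle windows lay inside a region. Over all genes, 17.9% of the 535 windows with an exact box overlapped a region, against 23.3% of windows without one. Signal between the deposited regions was not analysed here, so a window without a region is one where no interval was called, not one shown to lack SRF.

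**Figure D1:**
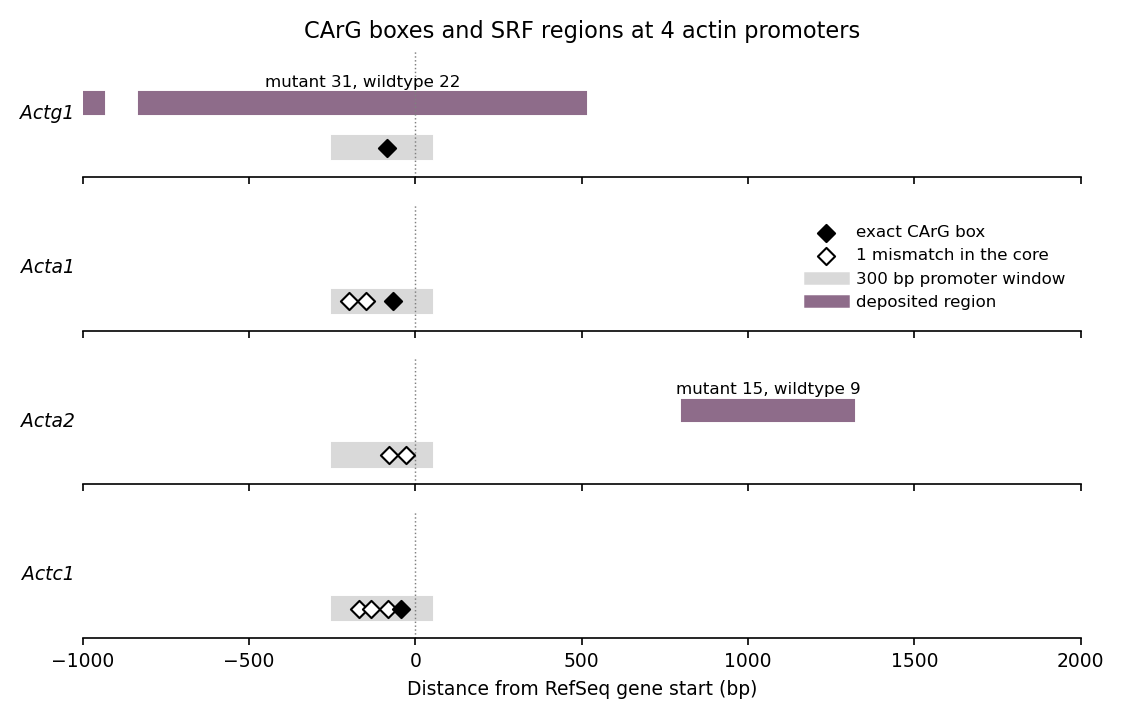
CArG boxes (filled diamonds exact, open diamonds with 1 mismatch in the core), the 300 bp promoter windows (grey) and the deposited regions (purple) at 4 actin promoters, by distance from the RefSeq start in bp along the direction of transcription; numbers are peak heights. The Actg1 window lies inside a region with heights of 31 in mutant and 22 in wildtype, the nearest region of Acta2 lies past its window, and Acta1 and Actc1 have no region in the range shown.

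Actb carried by far the highest SRF signal of the 6 genes. Its region at the gene start, chr5:142905126-142907445, spans 2319 bp across the first part of the gene and a CpG island, with its centre 439 bp past the start. It reached 94 in mutant and 153 in wildtype. The mutant height was thus the lower one, and both heights were far above those at most genes: over the highest region of each of 16697 genes, 99.5% of genes were lower in mutant and 97.7% in wildtype. The log2 ratio of mutant to wildtype (1 added to each height) was -0.70. The median over all genes was -1.08, which puts Actb 0.38 above it. When the mutant heights were scaled by 2.10, to give the libraries a common median at regions that both called, the ratio turned to 0.37 and the median of all genes to -0.050, so ratios are best read against that median.

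The position of the signal at Actb was the same in both libraries. The wildtype library had an interval of 2173 bp with its summit 28 bp before the gene start. The mutant library had 2 shorter intervals there. The higher, of 94, had its summit at the same listed base, and the lower, of 65, had its summit 900 bp inside the gene. The other region of Actb, chr5:142894954-142895577, lay 11459 bp past its start and beyond its end. Its heights were 13 in mutant, where it was not called, and 32 in wildtype. That region lies 27 bp before the start of Fbxl18, an F-box protein gene, and so is nearer to another gene than to Actb.

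Actg1, the gene of the other cytoplasmic actin, had 3 regions along its upstream side, all called in both libraries. The region over the start, chr11:120347982-120349325, had 31 in mutant and 22 in wildtype. The next, chr11:120349432-120350736, centred 1600 bp upstream, had 29 and 14. The farthest, chr11:120353267-120354129, centred 5214 bp upstream, had 34 and 66. The pair of regions nearest the start was thus higher in mutant, and the farthest was higher in wildtype. Their log2 ratios were 0.48, 1 and -0.94. In mutant the 3 heights lay close together, from 29 to 34, whereas in wildtype they ran from 14 to 66.

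The average signal over each region gave the same directions at Actg1, with 13.5 in mutant and 11.6 in wildtype at the start, 14.3 and 7.93 at the next and 12.5 and 22.1 at the farthest. After scaling all 3 were higher in mutant, with the farthest at 0.11. Over the start region the mutant summit lay 20 bp from the middle of the CArG box and the wildtype summit 219 bp from it, so the summits were 240 bp apart. The summits of the farthest region were 16 bp apart, which is the step at which 99.1% of all summits are listed. All 3 regions are also assigned to 0610009L18Rik, which starts on the upstream side, and each centre is nearer to the start of that gene. The farthest is assigned to Fscn2, a fascin gene, as well. Signal at this shared promoter therefore cannot be ascribed to Actg1 alone.

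**Figure D2:**
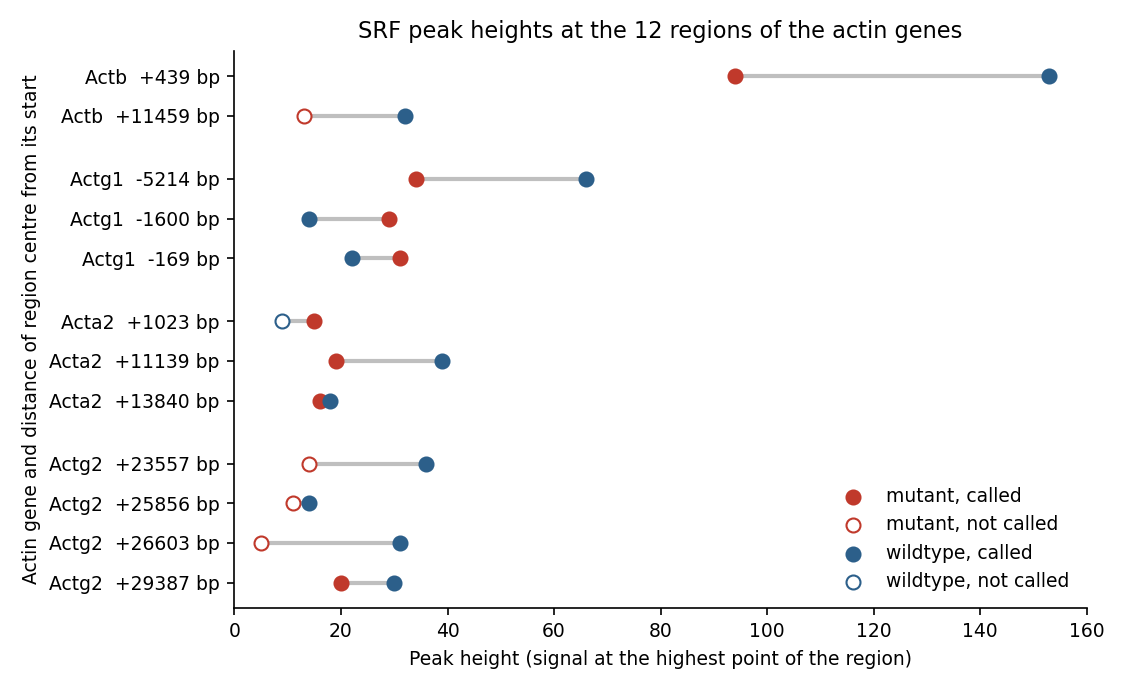
Peak heights in the mutant (red) and wildtype (blue) libraries at each of the 12 regions, labelled by gene and by distance of the region's centre from the gene start in bp; filled points were called by the authors and open points were not, and grey lines join the libraries. In the heights as deposited, red lies to the right of blue at 3 regions, 2 of Actg1 and 1 of Acta2. After scaling to a common median this holds for 9, but scaling by construction also brings the median log2 ratio of all genes to -0.050. The share over all regions after scaling was not counted.

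Of the muscle actins, Acta2 had 3 regions, all within the gene. The region nearest the start, chr19:34254054-34254573, centred 1023 bp inside, had 15 in mutant and 9 in wildtype. It was called in mutant only, as were 2.10% of all regions. It is the only one of the 12 regions assigned to no other gene: 11 of the 12 were shared, against 26.0% of all regions assigned to more than 1 gene. The region 11139 bp inside, chr19:34243859-34244535, had 19 and 39, and that 13840 bp inside, chr19:34241193-34241800, had 16 and 18. The wildtype height was the higher one at both of these, and the mutant height at the region nearest the start. The log2 ratios were 0.68, -1 and -0.16 from the start onward. By the average signal the last of them turned to 0.14, and after scaling all 3 were above 0. Summits of the regions called in both libraries stood at the same listed base in each.

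Both inner regions of Acta2 are also assigned to Stambpl1, a deubiquitinase gene, from whose start they lie 49226 bp or more. Heights at Acta2 were ordinary for a gene with a region. Its highest region exceeded that of 48.2% of genes in wildtype and of 50.5% in mutant. Its region nearest the start was very low in wildtype, where 0.832% of genes had a lower one at that place.

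Actg2 had 4 regions, and all of them lay past or at the far end of the gene, between 23557 and 29387 bp from its start. The region at the gene's end, chr6:83512369-83513019, had 14 in mutant and 36 in wildtype. The next, 25856 bp from the start, had 11 and 14, and that at 26603 bp had 5 and 31. None of these 3 was called in mutant. The farthest, chr6:83506408-83507321, had 20 and 30 and was called in both. Every height of Actg2 was lower in mutant as deposited, with log2 ratios of -1.30, -0.32, -2.42 and -0.56 in the same order. After scaling the second turned to 0.68 and the last to 0.47.

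All 4 of these regions are also assigned to Dguok, a mitochondrial deoxyguanosine kinase gene, and each is nearer to its start. The farthest lies 105 bp inside Dguok over a CpG island. The nearest of them overlaps the end of Actg2, and the other 3 lie beyond that end. Of the 4, 0 lay within 5 kb of the Actg2 start.

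Acta1 and Actc1 had no assigned region and no entry in the deposited gene table. The region nearest to the RefSeq start of Acta1 was centred 30192 bp upstream, inside the nucleoporin gene Nup133, with heights of 19 in mutant and 54 in wildtype. On the other side the nearest was 35324 bp away, at Ccsap, with 10 and 17. For Actc1 the nearest was centred 92857 bp upstream, at Aqr, with 7 and 29, and on the other side 204114 bp away, at Arhgap11a, with 9 and 23. These 4 neighbours were looked up by position after the absence of regions had been seen. No region thus came nearer than 29524 bp to the promoter window of Acta1 or 92298 bp to that of Actc1, and each of these windows held an exact CArG box.

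**Figure D3:**
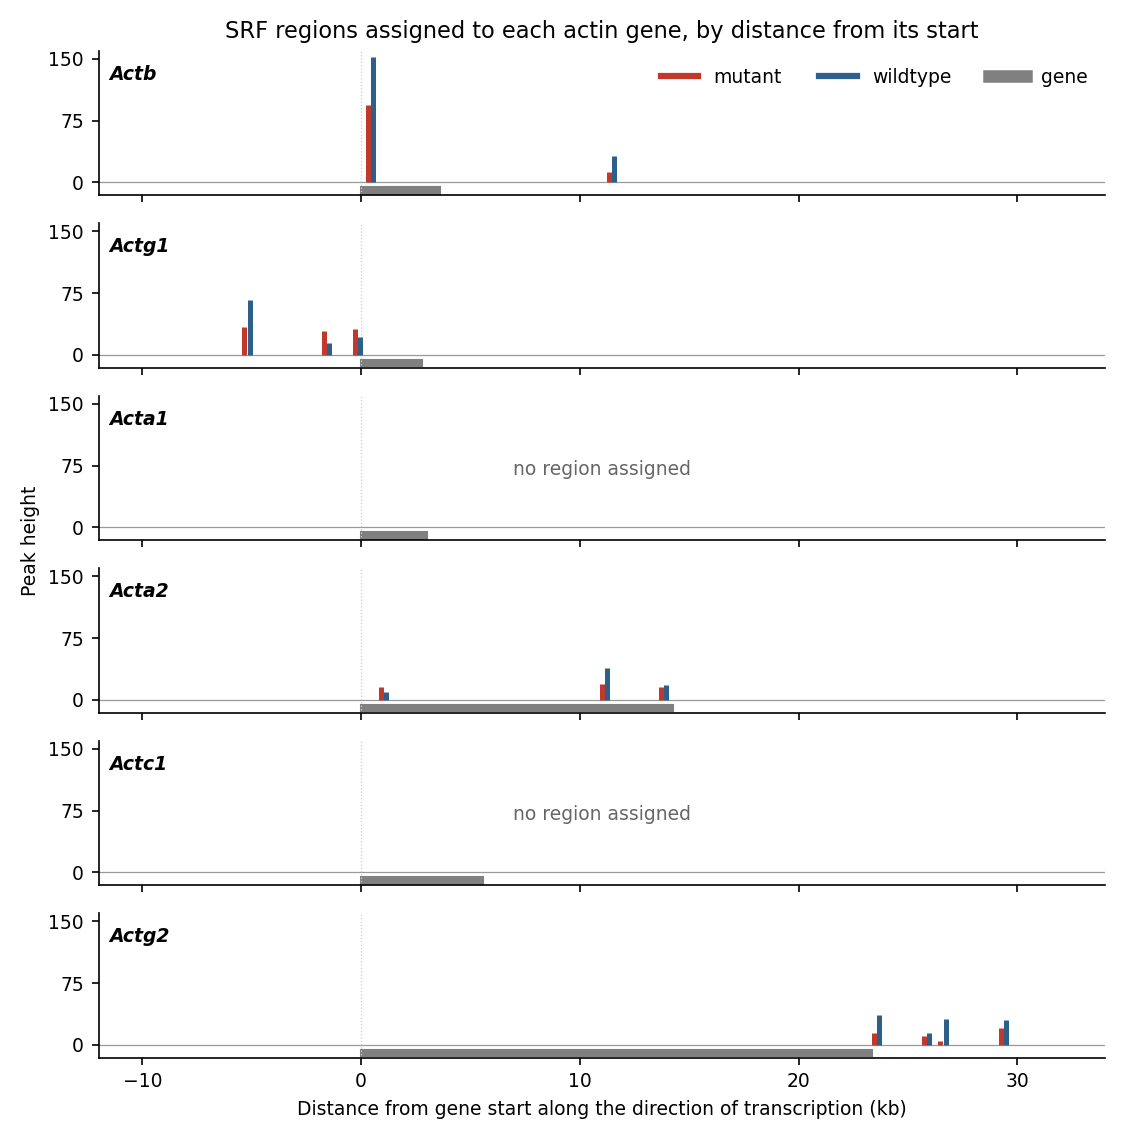
Regions assigned to each actin gene, by distance of the region's centre from the gene start in kb along the direction of transcription (0 is the start, the grey bar the gene), with peak height in mutant (red) and wildtype (blue) as bar height. Signal stands at the start of Actb and before the start of Actg1, inside Acta2, and at and beyond the end of Actg2, and none is assigned to Acta1 and Actc1.

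Heights of cytoplasmic and muscle actin regions overlapped in both libraries, but in mutant only through the Fbxl18 region of Actb (13, not called). The other cytoplasmic regions had 29 to 94 in mutant, above the muscle maximum of 20. Leaving out the Fbxl18 region was not planned, and nearness to another gene does not set it apart. Among assigned genes, the actin gene's own start was the nearest at 1 of 5 cytoplasmic and 3 of 7 muscle regions. In wildtype the 5 cytoplasmic regions ran from 14 to 153 with a median of 32, and the 7 muscle regions from 9 to 39 with a median of 30. In mutant they ran from 13 to 94 with a median of 31, and from 5 to 20 with a median of 15. Regions centred within 1 kb of the gene's own start numbered 2 of 5 for the cytoplasmic genes, 1 for each gene, and 0 of 7 for the muscle genes. Of all regions, 22.7% lay within 1 kb of a gene start, and of all genes with a region, 48.3% had one there. CpG islands stood in 3 of 5 cytoplasmic regions and in 1 of 7 muscle regions, the latter at the Dguok start, against 23.0% of all regions. At the highest region of each gene, the order in wildtype was Actb (153), Actg1 (66), Acta2 (39) and Actg2 (30), and in mutant Actb (94), Actg1 (34), Actg2 (20) and Acta2 (19). Acta1 and Actc1 stand outside this order, and it holds for that choice of region: at the region nearest the start Actg2 (36 in wildtype) stood above Actg1 (22). With 1 library each, whether neighbours in it differ beyond their spread cannot be told. For Actg2 a second region, that at the gene's end, has the same mean height as the one used here.

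The median log2 ratio at these highest regions was -0.82 over the 2 cytoplasmic genes and -0.78 over the 2 muscle genes with a region. The difference, cytoplasmic minus muscle, was -0.036, and its sign depended on the choice of region and of measure: it was 0.20 with the region nearest the start, 0.29 with the mean over a gene's regions, 0.086 with the average signal and 0.33 with the other tied Actg2 region. Against the median of all genes, Actb stood 0.38 higher, Actg1 0.14, Acta2 0.081 and Actg2 0.52. After scaling these offsets were 0.42, 0.16, 0.082 and 0.52. Scaling adds nearly the same amount to every ratio and to that median, so they could hardly change. With so few genes the medians describe these genes and do not compare the classes.

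**Figure D4:**
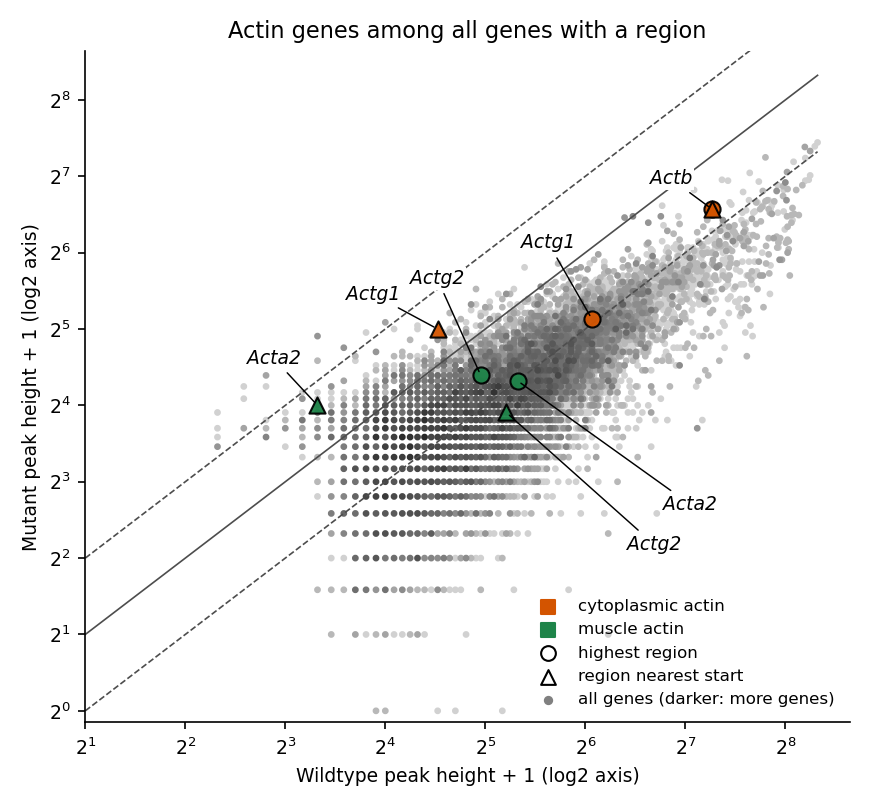
Mutant against wildtype peak height (1 added, both axes log2) of the highest region of every gene with a region (grey, darker where more genes fall) and of the actin genes, with circles for the highest region and triangles for the region nearest the start. The solid line marks equal heights and dashed lines a 2-fold difference; the circles lie below the solid line, and the triangles of Actg1 and Acta2 above it, in the heights as deposited. After scaling to a common median all 4 circles lie above equal height, but the median log2 ratio of all genes is then -0.050, close to equal height.

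Across the 12 regions, 8 were called in mutant and 11 in wildtype, and 7 in both, where 51.0% of all regions were called in mutant, 97.9% in wildtype and 48.9% in both. At 4 regions the wildtype height was at least 2-fold the mutant one, where the share over all regions was 59.0%. These were the Fbxl18 region of Actb, the inner region of Acta2 at 11139 bp, and the Actg2 regions at 26603 and 23557 bp. The Actg1 region 1600 bp upstream was at least 2-fold higher in mutant, where the share over all regions was 0.414%. With a pseudocount of 5 or the average signal 0 regions passed that rule, and after scaling 3 did. The share over all regions was not counted under these settings. Mutant height exceeded wildtype height at 3 of the 12 regions, and at 3.69% of all regions. These were the Actg1 regions at and 1600 bp before the start and the Acta2 region nearest its start. All 3 had low wildtype heights, of at most 22, and were called in mutant. That limit is the height of the Actg1 start region and was set after the values were seen. Of the 4 actin regions with both properties 3 were higher in mutant, and over all such regions 37.6% were. The other was the Acta2 region 13840 bp inside, with 16 in mutant and 18 in wildtype. The Acta2 region nearest the start was called in mutant and not in wildtype, as were 2.10% of all regions. At the region nearest the gene start, the mutant height was the higher one for 2 of the 4 genes with a region, Actg1 and Acta2, and for 5.84% of all genes. Low wildtype heights moved with these results, and their part in them was not tested.

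The genes most like Actb and Acta2 were those nearest in log2 height over the 2 libraries at their highest region. For Actb these were Gm20219 and Safb2, a scaffold attachment factor gene, both with 85 in mutant and 148 in wildtype and a distance of 0.15, and Celsr2, a cadherin gene of planar polarity, with 85 and 165 and a distance of 0.18 that 4 genes share. For Acta2 there were 19 genes with exactly its 19 and 39, the first by name being Acadl, Cdc42ep5 and Cog3. Likeness over 2 libraries is weak, and at the height of Acta2 many genes are alike.

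Other genes of the actin cytoskeleton were counted in the same way at their highest region. Of 40 genes linked to MRTF, 39 had a region. In the whole series 16697 genes had one. Their share of all genes was not counted, so this count and those of the lists below have no baseline. Of these, 17 were higher in wildtype by at least 2-fold and 1, Actn4, in mutant (46 and 22; named after its values were seen), where the shares over all genes were 57.7% and 0.198%. The highest were Csrp1, a LIM-domain protein gene, at 78 in mutant and 166 in wildtype, Tpm1, a tropomyosin gene, at 52 and 93, and Smtn, the smoothelin gene, at 47 and 96. The list had a median log2 ratio of -0.86, near that of the actin genes. Scaling left 0 genes 2-fold higher in wildtype and 2 in mutant. The shares over all genes after scaling were not counted.

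Of 12 actin-related protein genes, which encode relatives of actin in the Arp2/3, dynactin and chromatin remodelling complexes, 10 had a region. Of these 5 were higher in wildtype by at least 2-fold and 0 in mutant, where the shares over all genes were 57.7% and 0.198%. The list's median was -0.82. Actr1a, a dynactin subunit gene, had 31 in mutant and 79 in wildtype, Actl6a 28 and 43, and Actr3b 13 and 48. Of 19 genes of actin monomer binding and filament turnover, 15 had a region, 7 of them at least 2-fold higher in wildtype, Dstn included, and 0 in mutant. Their median was -0.85, and the same shares over all genes apply to their counts. Twf2, a twinfilin gene, had 72 and 227, Diap1, a formin gene, 47 and 151, and Cfl1, the gene of cofilin and a relative of destrin, 88 and 107. No gene of these lists other than Twf2 and Csrp1 exceeded the wildtype height of 153 at Actb.

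**Figure D5:**
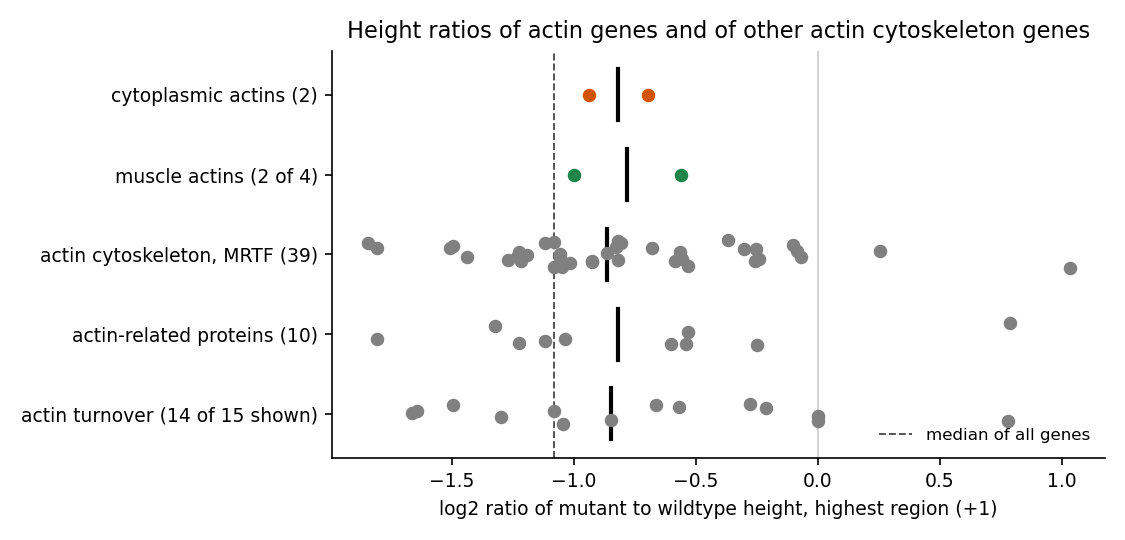
log2 ratio of mutant to wildtype peak height (1 added) at the highest region of each gene, for the actin genes and 3 lists of actin cytoskeleton genes; points are genes, black bars list medians and the dashed line the median of all genes, -1.08. Dstn, at 0 in mutant, is left out of the points but counts in its list's median; the list medians lie between -0.86 and -0.78 as deposited, and scaling moves all values up by about the same amount.

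The exact CArG box was looked for in these lists too. It stood in a promoter window of 8 of the 34 MRTF-linked genes with a window, in 0 of 9 actin-related genes and in 0 of 16 turnover genes, against 1.81% of all 27025 gene symbols. Of the 8 genes, 5 had a region over a window with a box, named here after their values were seen. Over all 488 gene symbols with a box 18.6% had a region over such a window, and the region was higher in mutant at 24.0% of boxed windows that had one. Cnn2, a calponin gene, had 29 in mutant and 18 in wildtype there, and Fhl2, a LIM-domain gene, 19 and 6. Myl6, a myosin light chain gene, had 53 and 57, Vcl, the vinculin gene, 50 and 60, and Srf 36 and 41. Mutant height was thus the higher one at Cnn2 and Fhl2, as at the boxed promoter of Actg1, and the lower one at the other 3. This holds for the boxed promoters only. At their highest regions Cnn2 (18 in mutant, 53 in wildtype) and Fhl2 (39 and 93) were lower in mutant. Another boxed window of Fhl2 had no region. After scaling all 5 promoter regions were higher in mutant, with log2 ratios from 0.80 to 2.55. The share of all boxed windows that were higher in mutant after scaling was not counted.

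SRF signal is not expression, so the tissue could not be checked by markers. For the record, 6 of 9 cornea markers, 7 of 8 smooth muscle markers and 13 of 16 striated muscle markers had a region. The share of all genes with a region was not counted, so these numbers have no baseline. Of the markers with a region, 0, 2 and 2 had one within 1 kb of the start, where 48.3% of all genes with a region did.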

How the data were processed

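Reads were mapped by the authors to mm10 using BWA, per the submitters' processing notes. How intervals were called, whether duplicates were removed and how libraries were scaled is not stated in these sources. The deposited values are signal: whole-number peak heights and average signal of 16399 mutant and 31282 wildtype intervals and of 31850 merged regions, with the authors' gene assignments and distances. A flag of called or not called per library is deposited too.

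Each gene was represented by the assigned region with the highest mean height, the first listed where tied. Ratios are log2 of mutant over wildtype height after adding 1, which understates differences of low regions. The rule of size was 2-fold. CArG boxes were searched on RefSeq promoter windows; the box is its own reverse complement, so a search covers both strands. Gene starts in the deposited table equal 1-based RefSeq starts for 52.7% of 16229 matched genes and are 1 lower for 0.0986%, so genes count from 1; whether interval starts do is unknown, and distances to boxes may be off by 1 bp. Counting functions were tested on simulated counts far above the heights used here. That check does not cover the 2-fold rule at low heights.

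The 6 genes and the lists were chosen with earlier results of these data known. Named by rule are the 6 genes, the genes sharing their regions, Srf and Dstn. The rule also covers the 3 genes nearest in height to the highest member of each class, and the 3 highest genes of each list. Named outside the rule, after results were seen, are Actn4 and the MRTF-linked genes with a region over a boxed window. The genes at the regions nearest to Acta1 and Actc1 are named outside it too. Alternatives were the average signal, a pseudocount of 5, common scaling, other region choices, stricter intervals, 50% reciprocal overlap and box mismatches. Software was Python 3.11.15, pandas 2.3.3, numpy 2.4.6, matplotlib 3.10.9 and scipy 1.17.1.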

Additional observations from a re-analysis of the deposited data

How the results depend on the processing

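No paired analysis was possible because there was 1 library per genotype. The other tied Actg2 region and the core-only mismatch were chosen after seeing the data; restricted to regions assigned to no other gene, the cytoplasmic genes had none and gave no value. Of 82 alternative values, 43 stayed within the tolerance of the main one, which for ratios was an exact binomial 95% interval on the heights taken as counts and for counts a factor of 1.5. Depth is unknown, so its limit at low heights could not be computed. Causes were not tested, except that scaling lifts the mutant by construction and stricter rules leave fewer regions.

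Scaling turned the log2 ratios to 0.37 for Actb, 0.11 for Actg1, 0.032 for Acta2 and 0.47 for Actg2, and the medians to 0.24 for cytoplasmic and 0.25 for muscle genes. It gave 1 actin region 2-fold higher in wildtype and 3 in mutant, with 9 higher in mutant. For MRTF-linked genes it gave 0 and 2, for actin-related genes 0 and 1, and for turnover genes 1 and 3. Shares over all regions or genes after scaling were not counted, so these counts have no baseline.

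The region nearest the start turned Actg1 to 0.48 and Acta2 to 0.68 and moved the cytoplasmic median to -0.11. It also moved the percent of genes lower in wildtype to 38.1 for Actg1, 0.832 for Acta2 and 64.7 for Actg2. The mean over regions gave -0.11 for Actg1 and -0.45 for the cytoplasmic median. The region assigned to no other gene turned the muscle median to 0.68, from Acta2 alone.

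The average signal gave 2 actin regions 2-fold higher in wildtype and 0 in mutant, 5 and 0 MRTF-linked genes, and 2 actin-related genes higher in wildtype. A pseudocount of 5 gave 0 actin regions 2-fold higher in mutant, 11 and 0 MRTF-linked genes and 3 actin-related genes. Shares over all regions or genes were not counted under these settings, so these counts have no baseline. With the average signal the median log2 ratio of all genes was itself -0.79, against -1.08 with heights.

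Keeping intervals no lower than their median height of 24, 4 actin regions were called in mutant and 7 in wildtype. With all intervals kept, regions centred within 1 kb of the start were called 2 times in mutant and 2 in wildtype, and within 5 kb 4 and 3. Shares over all regions were not counted under these limits.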

Other observations

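Regions over promoters with an exact CArG box were looked at because Actg1, Cnn2 and Fhl2 were higher in mutant there; this set was chosen after those values were seen and holds them. Of the 82 regions that were the highest over a promoter window with an exact box, 21 were higher in mutant (25.6%). Of 5698 regions over promoter windows without one, 451 were (7.92%). Among regions called in both libraries the counts were 16 of 54 (29.6%) and 254 of 3368 (7.54%). Median heights were 28 in mutant and 38 in wildtype with a box and 20 and 36 without one in that set. These shares are descriptions of 2 libraries with unknown scaling and were not tested. Because the set holds the regions that prompted it, they cannot tell whether boxed promoters differ between genotypes.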
